A study of Xenopus tropicalis with 12 samples.

Results

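The frog gene inhbc.1 encodes an inhibin beta subunit of the C type, a secreted ligand chain of the TGF-beta superfamily. It was followed here on every array of a study of Xenopus tropicalis embryos exposed to naphthenic acids. The gene was taken as all probes whose transcript accession belongs to inhbc.1 in the RefSeq gene table. This gave 1 of the 4639 genes with a symbol on the array and 1 of 32899 distinct probes, printed as 2 spots on each of the 12 arrays. After the filter on dim probes, 29168 probes and 4372 genes with a symbol were tested, inhbc.1 among them. The probe name marks it as specific, in contrast to probes marked as able to cross-hybridise with related transcripts.

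The series held 3 groups of 4 arrays each, all of RNA from whole embryos at 3 days post fertilization. The groups were embryos exposed to mixture S1, embryos exposed to mixture S2, and control embryos. Both mixtures are naphthenic acids, carboxylic acids of petroleum, and were separate batches of a single catalogue product. The dose, the length of exposure and what the controls received are not given in the sources used here. The labels do not say whether the 4 samples of a group came from separate clutches or tanks, so an adjusted p measures only the spread between these samples.

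Beta subunits pair into dimers through a cysteine bond. A pair of beta subunits makes an activin, and a beta subunit of the A or B type with the alpha subunit makes an inhibin. Activins bind type II and type I receptors on the cell surface and signal through Smad proteins, and follistatin-type proteins bind them outside the cell. Whether the C-type subunit acts in these ways was not examined here. In mammals the C-type subunit is made mainly in the liver. In Xenopus embryos activin-like ligands are known for the induction of mesoderm and endoderm.

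In exposed embryos the inhbc.1 signal was lower than in control embryos, more so with S2 than with S1. Group means were 6.50% of the array's 75th percentile signal in S1, 2.96% in S2 and 11.8% in control (geometric means, n = 4 each). That percentile is the yardstick to which every array was scaled. The gene was chosen by its own measured values in the 3 pairwise comparisons of these arrays, so its levels and differences are a description, without a test.

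On the S1 arrays, in the order S1-1 to S1-4, inhbc.1 stood at 6.52%, 5.11%, 6.77% and 7.90% of the 75th percentile. On the S2 arrays S2-1 to S2-4 it stood at 3.14%, 2.97%, 2.40% and 3.45%. On the control arrays C-1 to C-4 it stood at 19.5%, 10.9%, 7.46% and 12.03%. The S2 arrays formed the lowest and tightest group, S1 lay between, and control was the highest and the most spread. C-1 was the brightest of the 12 arrays for this gene and S2-3 the dimmest. On the log2 scale the means were -3.94 ± 0.26 in S1, -5.08 ± 0.22 in S2 and -3.09 ± 0.57 in control (SD, n = 4 each). The order of the groups was thus S2, S1, control from low to high, and only S1 and control overlapped.

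**Figure D1:**
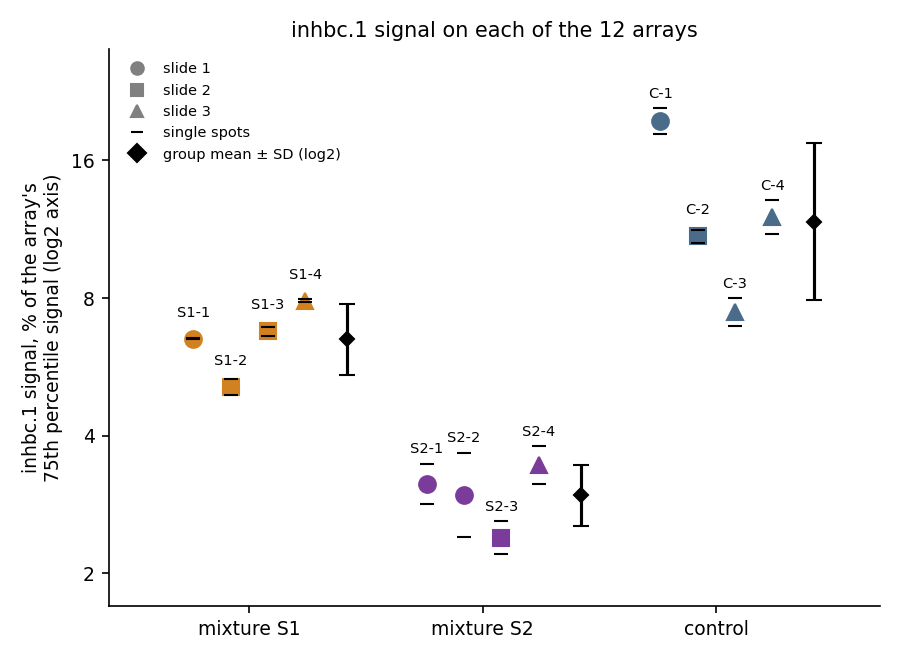
Scaled inhbc.1 signal, as a percent of the array's 75th percentile on a log2 axis, for the 4 arrays each of S1, S2 and control. Coloured points are array values with the slide as the symbol, short bars are the single spots, and diamonds with whiskers are the mean and SD on the log2 scale; the 4 S2 arrays lie below all others and S1-4 lies above C-3.

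With mixture S2 the gene was 3.97-fold lower than in control, a log2 difference of -1.99 ± 0.25 (SE of the fit). All 16 pairings of an S2 array with a control array had the S2 array lower. The highest S2 array, S2-4, stood 1.11 log2 units below the lowest control array, C-3. S2 arrays all below the control arrays occurred in 9.4% of the 4372 genes with a symbol, so the separation alone is not rare on these arrays. Only 4 of the 4372 genes had a more negative difference.

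With mixture S1 the gene was 1.81-fold lower than in control, a log2 difference of -0.86 ± 0.25. The S1 array was lower in 15 of 16 pairings. The exception was S1-4 at -3.66, just above C-3 at -3.75, so the groups overlapped by 0.083 log2 units. In this comparison 50 of the 4372 genes had a more negative difference.

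Set directly against each other, S2 was 2.19-fold lower than S1, a log2 difference of -1.13 ± 0.25. S2 was lower in 16 of 16 pairings, and a gap of 0.57 separated S2-4 from S1-2, the lowest S1 array at -4.29. Of the 4372 genes, 2.74% had S2 arrays all below the S1 arrays, and 4 had a more negative difference than inhbc.1. No probe passed limma's adjusted threshold in this comparison across the array, although 2142 of the 29168 had an unadjusted p under 0.05. How the mixtures differ in composition was not analysed here. Whole embryos were measured, so fewer cells that make inhbc.1 and less inhbc.1 RNA per cell cannot be told apart.

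The gene was dim on every array, at 2.40% to 19.5% of the array's 75th percentile. Whether this affected the size of the differences was not tested. Before scaling, the mean of both spots was 35.0, 24.2, 28.6 and 20.6 units on S1-1 to S1-4. It was 16.3, 14.6, 16.2 and 19.0 units on S2-1 to S2-4. On C-1 to C-4 it was 192, 92.2, 41.7 and 60.3 units. Unscaled signals therefore separated all 3 groups, with every exposed array below every control array. Array brightness differed as well, with a 75th percentile of 261 to 537 units in S1, 481 to 675 in S2 and 500 to 985 in control. With array brightness as a covariate the log2 difference was -0.80 ± 0.39 for S1 minus control, -1.96 ± 0.30 for S2 minus control and -1.16 ± 0.29 for S2 minus S1. These SEs were wider than the 0.25 of the main setting. Whether brightness had a part in the differences was not tested.

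Of the 24 inhbc.1 spots, 23 were well above background by the scanner software's own mark, and the exception was 1 of 2 spots on S2-3. The spots of an array differed by 0.0029 to 0.62 log2 units, with a median of 0.20. The widest gap, on S2-2, was smaller than the difference of S2 from either other group. The gene's signal was 2.85 to 4.89 times the array's lowest signal well above background in S1, 1.48 to 2.48 times in S2 and 5.09 to 14.5 times in control. S2 signals thus lay close to the limit of what the arrays could measure, and control signals did not.

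**Figure D2:**
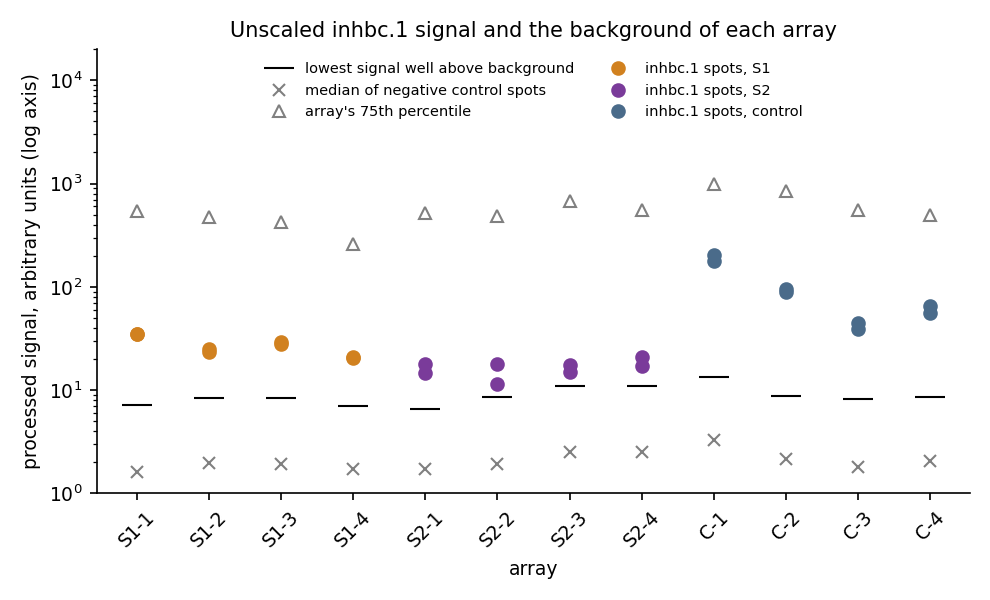
Unscaled signal of each inhbc.1 spot on the 12 arrays, in arbitrary units on a log axis, beside the array's 75th percentile, its lowest signal well above background and the median of its negative control spots. S2 spots lie nearest to the lowest signal well above background. Spots of C-1, C-2 and C-4 lie farthest from it, and those of C-3 about as far as those of S1-1.

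The differences also changed under settings with another background correction, and the part of the gene's dimness in this was not tested. These settings also started from the median spot signal, and some added an offset. The part of background removal alone was therefore not isolated. The raw spot medians ran from 55 to 81 units in S1, from 50 to 66 in S2 and from 77 to 302 in control, over a local background of 22 to 30 units. The main setting used the scanner software's processed signal, which is already background-corrected. A model-based correction called normexp, with outlying local backgrounds replaced and an offset of 50 added, gave -0.089 ± 0.18 for S1 minus control, -0.62 ± 0.18 for S2 minus control and -0.54 ± 0.18 for S2 minus S1. The offset was larger than every unscaled processed S1 and S2 signal of the gene. It was added to background-corrected spot medians, however, and not to that signal. Without the offset, normexp gave -0.62, -1.46 and -0.83 in the same order of comparisons. With local backgrounds taken as measured, which reached 143643 units on 1 array, normexp gave 0.29 ± 0.56, -0.17 ± 0.56 and -0.45 ± 0.56. S2 was lower than control in sign under every setting run, while S1 minus control turned positive under this last form.

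**Figure D3:**
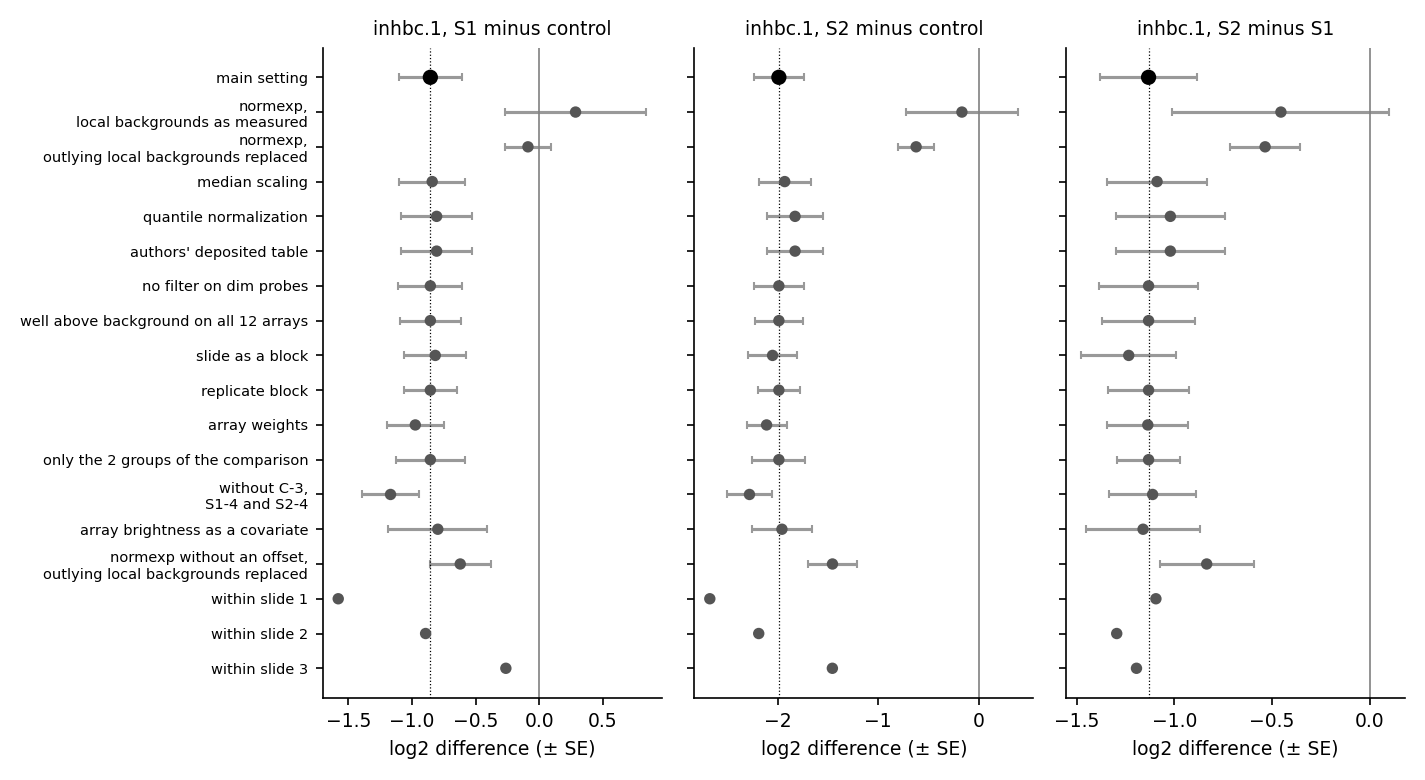
Log2 difference of inhbc.1 with its SE under each processing setting (rows) for S1 minus control, S2 minus control and S2 minus S1; within-slide values have no SE, and the dotted line marks the main setting. The normexp settings move toward 0, and S1 minus control is 0.29 with local backgrounds as measured.

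The arrays lay on 3 slides, each of which held all 3 groups. On slide 1, with S1-1, S2-1, S2-2 and C-1, S1 minus control was -1.58 and S2 minus control was -2.67. On slide 2, with S1-2, S1-3, S2-3 and C-2, these were -0.89 and -2.19. On slide 3, with S1-4, S2-4, C-3 and C-4, they were -0.26 and -1.46. Each of these differences was negative, and the slide 1 values were the widest and the slide 3 values the narrowest. S2 minus S1 was nearly the same on every slide, at -1.09, -1.30 and -1.19 on slides 1, 2 and 3.

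The control arrays varied most, from -3.75 to -2.36 on the log2 scale. Without C-1, S1 minus control was -0.61 and S2 minus control -1.74. Without C-3 they were -1.07 and -2.21. C-3, S1-4 and S2-4 stood apart from the other arrays on 1 each of the leading principal components over all probes. Leaving out these 3 arrays gave -1.17 for S1 minus control, -2.28 for S2 minus control and -1.11 for S2 minus S1.

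The pathway lists around the gene, as counted here, held 183 symbols, most of them without a matched probe. Besides inhbc.1, 55 genes with a probe were counted, of which 49 passed the filter and 41 were well above background on all 12 arrays. Specific probes measured 35 of the 49, and 14 probes can cross-hybridise. In S1 against control, 0 of the 49 passed limma's adjusted threshold where 2.24% of all genes with a symbol were called, 1.35% higher and 0.892% lower. In S2 against control, 2 of the 49 fell (fstl1 and furin), where 5.44% were called, 2.42% higher and 3.02% lower. Over all probes, named or not, 2.1% were called in S1 and 5.06% in S2. In S2 against S1, 0 of the 49 passed and 0% of all genes with a symbol did. An unadjusted p under 0.05 was reached by 8 of the 49 in S1, 11 in S2 and 4 in S2 against S1, where 18.2%, 22.6% and 7.25% of all genes with a symbol reached it. The median log2 difference over the 49 was -0.09, -0.13 and -0.06 in these comparisons, against -0.03, -0.05 and -0.02 over all 4372 genes. Both comparisons with control share the control arrays.

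Of the other inhibin and activin subunits, inhbc.2 and inhba were measured and neither passed. inhbc.2, the annotated neighbour and namesake of inhbc.1, stood at 28.8%, 28.7%, 30.3% and 22.9% of the 75th percentile on the S1 arrays. It stood at 33.4%, 24.99%, 28.7% and 41.9% on the S2 arrays, and at 29.1%, 27.0%, 17.4% and 26.6% on the control arrays. The groups overlapped widely, and the log2 difference was 0.16 ± 0.19 in S1 (limma adjusted p = 0.733) and 0.37 ± 0.19 in S2 (adjusted p = 0.291), opposite in sign to inhbc.1. inhba, the A-type subunit, was read by a cross-hybridising probe. It stood at -0.08 ± 0.16 in S1 (adjusted p = 0.862) and -0.01 ± 0.16 in S2 (adjusted p = 0.984). Probes of inha and inhbb, the alpha and B-type subunits, were not analysed here.

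Among the 13 tested genes on the list of other TGF-beta superfamily ligands, 0 passed in any comparison. Their S2 minus control values ran from -0.64 for bmp15, an oocyte-type ligand, to 0.09 for gdf9, its relative, with a median of -0.16. Both ends were dim, with bmp15 well above background on 5 of the 12 arrays and gdf9 on 10. The list also holds bmp1, which encodes a protease and is counted again among the ligand processing genes. mstn.1, a copy of the muscle growth inhibitor myostatin, stood at -0.52 in S1 (adjusted p = 0.148) and -0.50 in S2 (adjusted p = 0.125). tgfb1, the founding ligand of the superfamily, stood at 0.02 and -0.11 in the same comparisons.

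Of 9 ligand antagonists and carriers, fstl1, a secreted follistatin-like glycoprotein, fell in S2. Its signal was 772%, 650%, 635% and 770% of the 75th percentile on the S2 arrays, against 1023%, 960%, 986% and 1047% on the control arrays. Every S2 array lay below every control array, and the log2 difference was -0.51 ± 0.10 (adjusted p = 0.0141). In S1 fstl1 stood at 857%, 885%, 778% and 775%, and its difference of -0.29 ± 0.10 did not pass (adjusted p = 0.154). The S2 call was lost under median scaling, under each normexp form and without S2-2. fstl5, a related secreted protein, stood at -0.40 in S1 (adjusted p = 0.186) and -0.19 in S2 (adjusted p = 0.484). All 9 genes of this list had negative values in S2, from -0.51 to -0.01, and 8 of them did not pass. Of all 4372 genes with a symbol, 2533 had negative values in S2. Follistatin itself was not analysed here.

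None of the 6 counted receptors and co-receptors passed. The type II activin receptors acvr2a and acvr2b, and acvr1, tgfbr1 and tgfbr2, had no matched probe and were not analysed here. acvr1b, a type I activin receptor read by a cross-hybridising probe, stood at 0.05 ± 0.09 in S1 (adjusted p = 0.83) and -0.18 ± 0.09 in S2 (adjusted p = 0.287). acvr1c, another type I receptor of the activin group, stood at -0.18 ± 0.24 (adjusted p = 0.785) and -0.44 ± 0.24 (adjusted p = 0.328). hjv, which encodes the BMP co-receptor hemojuvelin, stood at -0.68 ± 0.16 in S1 (adjusted p = 0.053) and -0.42 ± 0.16 in S2 (adjusted p = 0.161). In S1, hjv passed under median scaling, quantile normalization, the authors' deposited values, array weights, the filter asking for all 12 arrays and without S1-4.

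None of the 9 counted Smads and partners and none of the 7 counted transcriptional targets passed. The Smad genes smad1, smad2 and smad3 had no matched probe and were not analysed here. The target list includes genes induced by activin, nodal, TGF-beta or BMP signals. Its most negative value in S2 was in ventx2.2, a homeobox gene of ventral fate, at -0.59 (adjusted p = 0.0614). smad7 and skil, which encode feedback inhibitors of the pathway, stood at 0.01 and 0.13 in S2 (adjusted p = 0.968 and 0.679). In S1 smad7 stood at -0.08 and skil at -0.13. Of the 7 targets, 7 had negative values in S1 and 5 in S2. Of all 4372 genes with a symbol, 2411 had negative values in S1 and 2533 in S2.

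Of the 6 counted proprotein convertases and ligand processing genes, furin fell in S2 and 5 did not pass. furin, which cleaves TGF-beta superfamily precursors among others, stood at 135%, 144%, 157% and 149% of the 75th percentile on the S2 arrays, against 206%, 176%, 221% and 192% on the control arrays. The groups did not overlap, and the log2 difference was -0.44 ± 0.10 (adjusted p = 0.0264). This call held in 13 of 26 settings and was lost under median scaling, each normexp form, the slide or the replicate number as a block and array brightness as a covariate. It was also lost without S2-1, S2-2, C-1, C-3 or C-4, and without C-3, S1-4 and S2-4 together. pcsk6, another gene of this list, stood at -0.61 ± 0.18 in S2 (limma adjusted p = 0.0689). It passed with the slide as a block, with array brightness as a covariate, with array weights and without S1-4.

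**Figure D4:**
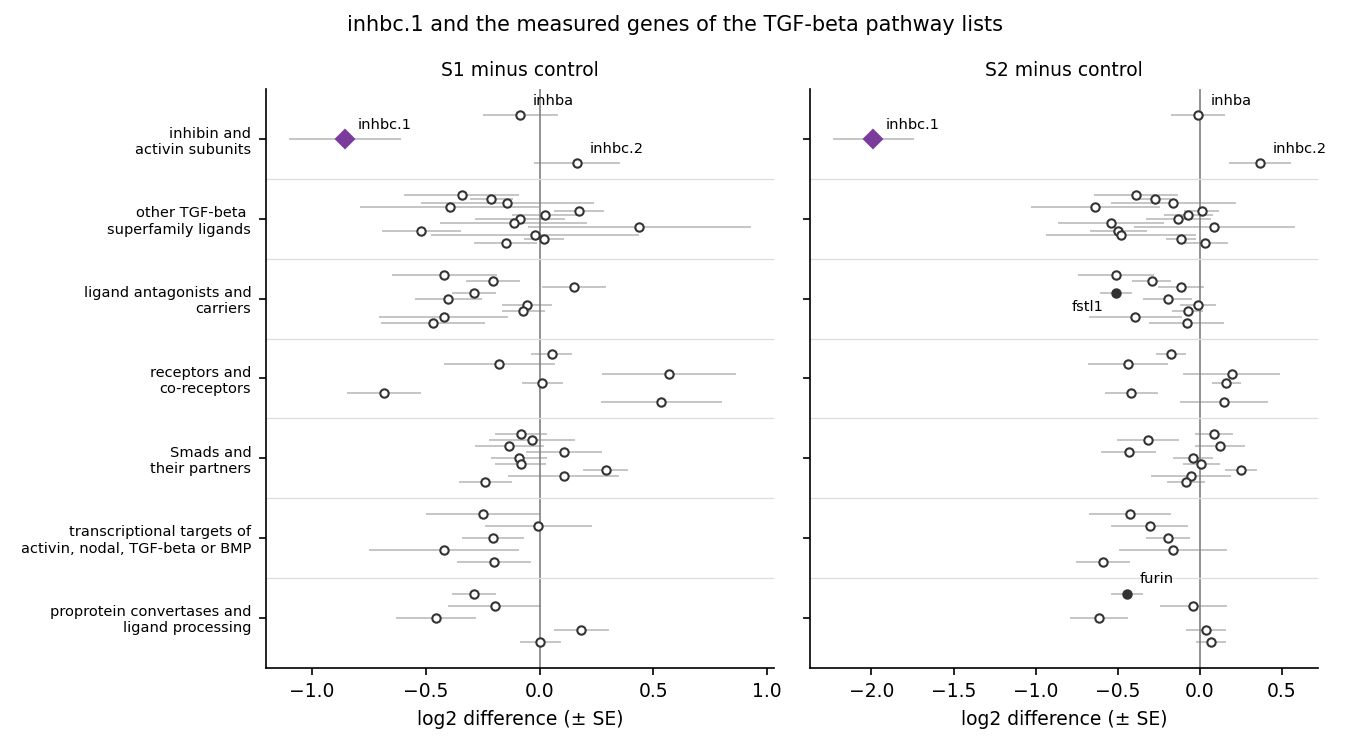
Log2 difference from control (± SE) of inhbc.1 (diamond) and the 49 measured pathway genes, each drawn once, for S1 and S2, with lists as rows; filled points passed the adjusted threshold and open points did not. inhbc.1 lies at -0.86 and -1.99, while the other genes lie between -0.68 and 0.57.

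The genes most like inhbc.1 over the 12 arrays were found by Pearson's r of the scaled log2 signal among the other 4371 genes with a symbol. The highest were lgi4 at 0.89, krt78.3 at 0.88 on a cross-hybridising probe, and asb2, fstl1, thdl18, kcnc4 and lmna at 0.86 each, then rbp3 at 0.85. Over all genes r had a median of 0.07, and 95% lay between -0.66 and 0.71. The arrays share scaling and group, so these coefficients describe and test nothing. The likest genes include a secreted protein of the glial and neuronal LGI family (lgi4), a keratin (krt78.3), a potassium channel subunit (kcnc4), a nuclear lamin (lmna) and a retinoid-binding protein of the retina (rbp3).

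Among these genes the differences from control were smaller than that of inhbc.1. lgi4 stood at 86.2%, 74.1%, 89.1% and 85.0% on the S1 arrays and 65.4%, 65.2%, 77.4% and 69.1% on the S2 arrays, against 141%, 125%, 122% and 136% on the control arrays. All exposed arrays lay below all control arrays, and the log2 differences were -0.65 ± 0.10 in S1 and -0.92 ± 0.10 in S2. S1 arrays all below the control arrays occurred in 5.83% of genes with a symbol. thdl18 had -0.33 ± 0.17 in S1 and -0.91 ± 0.17 in S2. rbp3 had -0.48 and -0.64, and lmna -0.13 and -0.39. Likeness over the same arrays chose these genes, so no p is given for them as genes like inhbc.1; fstl1 and rbp3 are called elsewhere in the text as members of the pathway and marker lists.

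**Figure D5:**
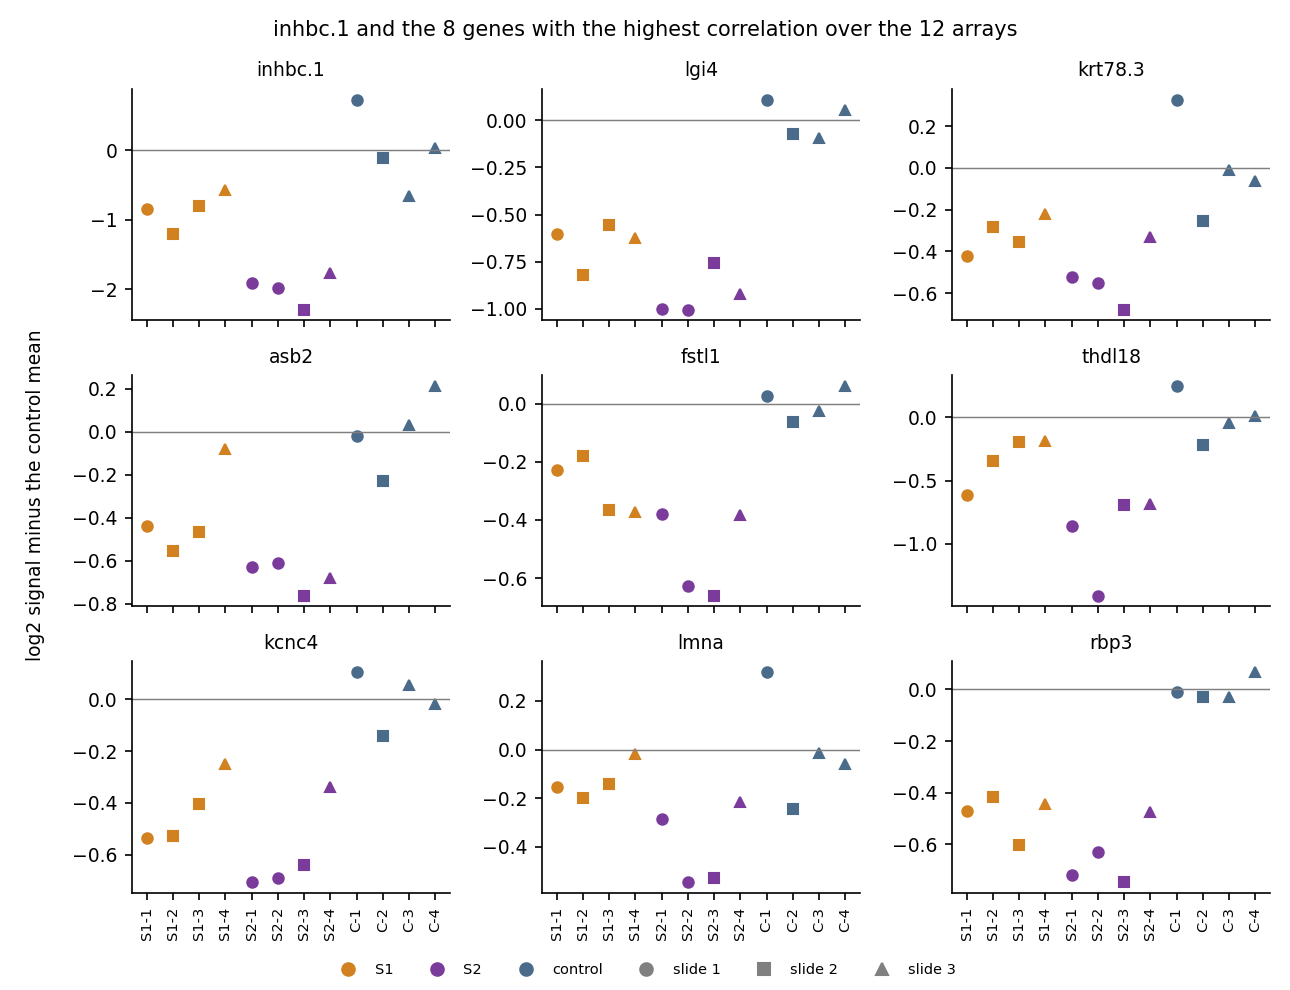
Log2 signal minus the control mean on each of the 12 arrays for inhbc.1 and the 8 genes with the highest correlation to it, with group as colour and slide as symbol; each panel has its own scale. S2 arrays are the lowest for inhbc.1, which spans about 3 log2 units, a wider range than in the other panels.

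The most opposite genes were slc31a2, a copper transporter family gene, at r = -0.85, thpo, the platelet growth factor thrombopoietin, at -0.84, bco1, which encodes a carotene-cleaving oxygenase, at -0.84, and eif4h, a translation factor gene on a cross-hybridising probe, at -0.83. bco1 stood 0.78 ± 0.19 higher in S1 and 1.17 ± 0.19 higher in S2 than in control on the log2 scale.

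Once group means were removed, the deviations of single arrays matched other genes. tmub2 had r = 0.92, opcml 0.85, gask1b 0.84, tgif2 0.82 and smox 0.81, of which tmub2, opcml and tgif2 have cross-hybridising probes. None of these 5 passed in S2 against control, with values from -0.11 for smox to 0.35 for tmub2. Of the 8 genes most alike over all arrays, 2 had deviations correlated above 0.5, lmna at 0.69 and krt78.3 at 0.63.

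In the RefSeq gene order, the 8 annotated genes nearest to inhbc.1 included 2 measured by a probe matched to them. These were inhbc.2, 2 places before, and gli1, which encodes a transcription factor of the Hedgehog pathway, 1 place after. gli1 stood at -0.16 ± 0.14 in S1 (adjusted p = 0.627) and -0.29 ± 0.14 in S2 (adjusted p = 0.279). The nearest 4 measured genes on either side also held lrp1, stat6 and ccdc89 before, and ddit3, os9 and agap2 after. Of all 8, 0 passed in S1 or in S2, where 2.24% and 5.44% of all genes with a symbol were called. The S2 minus control values of the 8 ran from -0.29 for gli1 to 0.37 for inhbc.2.

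Levels of tissue markers were compared as well, since the C-type subunit is a liver product in mammals. Of 37 tissue marker genes from 10 lists, 35 were well above background on all 12 arrays. Of 26 listed liver markers, 11 were measured. Of these 11, 2 rose and 0 fell in S1, and 3 rose and 0 fell in S2. The 3 were apob, kng1 and plg, which encode apolipoprotein B, kininogen and plasminogen. The other 8 did not pass in S2. Of the 11, 3 had negative values in S2, alb at -0.25, fga at -0.19 and hnf4a at -0.09. In S1, 5 of the 11 had negative values. Over all genes with a symbol, 1.35% were called higher in S1 and 2.42% in S2. The median difference of the liver list was 0.06 in S1 and 0.05 in S2. Its genes had r of -0.69 to 0.25 with inhbc.1 over the 12 arrays, 7 of 11 below 0. No measured liver marker was called lower with either mixture. Over all genes with a symbol, 0.892% were called lower in S1 and 3.02% in S2. With shares this low, 0 of 11 genes is not unusual. The summed scaled signal of the 11 liver genes ran from 9638% to 12401% of the 75th percentile in S1, from 14032% to 14942% in S2 and from 6532% to 11090% in control. Liver sums on the S2 arrays thus lay above those of the other groups, while S1 and control sums overlapped. Whether the liver had a part in the inhbc.1 difference was not tested.

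Among the 26 marker genes of other tissues, 1 rose and 3 fell in S1, and 3 rose and 3 fell in S2. Of all genes with a symbol, 0.892% were called lower in S1 and 3.02% in S2. The marker lists were chosen with earlier results of these data known, so these counts are a description. The genes that fell in S2 were krt78.1, a keratin on the epidermis list, rbp3 of the retina and ctrb1, a pancreatic protease gene on a cross-hybridising probe, with log2 differences of -2.46, -0.64 and -1.01. The genes that rose in S2 were lrp2 and amn, which encode endocytic proteins of kidney tubule cells, and mpo, the myeloperoxidase gene of the blood and vessel list, with 0.58, 0.78 and 0.58. The other 3 kidney genes did not pass in S2, with slc34a3 at -0.44, pax8 at -0.21 and pax2 at 0.30. Nor did the other 2 blood and vessel genes, epb42 at -0.47 and kdr at -0.15. In S1, slc34a3 was among the genes that fell, at -0.93. The summed signal of the 4 intestine and pancreas genes was 4548% to 13190% in S1, 2160% to 10753% in S2 and 12279% to 20495% in control. That of the 4 lens and retina genes was 271% to 292% in S1, 228% to 303% in S2 and 366% to 427% in control. The single epidermis gene, krt78.1, was the 1 measured of 9 listed. It stood at 28.6% to 46.7% in S1, 16.1% to 34.3% in S2 and 109% to 166% in control. The lens and retina sum and the epidermis gene were therefore lower on every exposed array than on any control array. The intestine and pancreas sum was lower than on any control array on every S2 array. inhbc.1 was likewise lower on every S2 array, but S1-4 lay above C-3. Of single genes with a symbol, 5.83% had all S1 arrays below the control arrays and 9.4% had all S2 arrays below them. No such share was worked out for sums of genes. Of the 4 lens and retina genes, rbp3 passed and the other 3 did not. Of the 4 intestine and pancreas genes, ctrb1 passed in S2 and the other 3 did not. In S2, cpa1 stood at -1.31, pdx1 at -0.30 and amy2a at 0.19, with cpa1 and amy2a on cross-hybridising probes. Sums of the other 6 lists overlapped between S2 and control or lay higher in S2. In S1 the kidney sum was also lower on every array than on any control array, at 576% to 720% against 727% to 806%. The part of any tissue's share in the inhbc.1 difference was not tested.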

How the data were processed

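RNA of 12 whole-embryo samples was labelled with Cy3 and hybridised to single-colour Agilent arrays, per the labels. The spot intensity used here was deposited by the authors as background-corrected output of Feature Extraction (version 11.0.1.1, Agilent), per the file headers. The authors' deposited value table is in log2 and equalled the quantile-normalized log2 of that signal to within 0.00126, with a median of 6.8 in every column, the arrays' own direction and no centring. The scanner software's flags deposited in the same files (well above background, outlier) are marks and not a measurement.

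Each array's log2 intensities were scaled by subtracting their 75th percentile (43803 spots, controls left out). Spots marked as outliers (295) were dropped unless all spots of a probe were marked, and spots of a probe were averaged. Probes with a spot well above background on at least 4 arrays were kept. The 3 groups were compared in 1 fit with limma 3.58.1 in R 4.3.3, and p-values were adjusted by Benjamini-Hochberg over all 29168 probes, with a threshold of 0.05. For inhbc.1 the fit's SE is given without a p. Normexp used the median spot signal, because the mean signal planned for it is not among the columns used here. Slides were read from the slide barcode in the deposited file names.

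Symbols came from RefSeq accessions, and 15.8% of the tested probes received one. A gene without a matched probe may therefore still be on the array. A gene with several probes was represented by the one with the highest mean. Named genes were all measured subunits, activin receptors and follistatin-type antagonists, the called pathway genes, the 8 genes most like inhbc.1 and the 4 most opposite over the arrays, the 5 most alike in deviations from group means, and up to 4 measured genes on either side. Further pathway and marker genes were named as the ends of a range or near the threshold, after their values were seen. A listed pathway gene that was called is not reported here; the counts, medians and plot of the pathway lists leave it out, so they lack that call and do not cover the whole lists. The members, lists and this rule were chosen with earlier results of these data known. The array count limits precision. On simulated data for S2 minus control (29168 probes), limma called 10% of probes changed by 0.5 log2 units, 60% at 1, 88% at 2 and 98% at 3. The simulation changed 50 probes at each size, left all others without a group difference and drew independent noise. On the real arrays 1476 probes were called, so these shares need not hold there. Figures used matplotlib 3.10.9 in Python 3.11.15.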

Additional observations from a re-analysis of the deposited data

Results flagged for a closer look

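Within groups of 4 arrays, a single array stood far from the other 3 in 5 of 93 groups checked over 31 named genes. Chance gives about 1 in 20 such groups. Of the 5, 4 lay among the 15 groups of the 5 genes chosen for their deviations within groups, a choice that favours such arrays, and 1 among the other 78. inhbc.1 was not among them. acvr1b stood at 0.22 on C-1 on the scaled log2 scale, with the other control arrays at 0.06 to 0.08. tgif2 stood at -3.45 on C-1, with the other control arrays at -4.30 to -4.24, and at -4.42 on S2-3, with the other S2 arrays at -4.05 to -3.98. gask1b stood at -2.38 on S2-4, with the other S2 arrays at -2.77 to -2.72. tmub2 stood at 0.96 on S1-2, with the other S1 arrays at 1.18 to 1.21. The causes were not tested.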

How the results depend on the processing

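For inhbc.1, S1 minus control was 0.29 under normexp with local backgrounds as measured (the sign turned) and -0.089 with outlying ones replaced, and -1.58 and -0.26 within slides 1 and 3. S2 minus control was -0.17 and -0.62 under these normexp forms, -1.46 under normexp without an offset, a setting added after seeing the data, and -2.67 and -1.46 within slides 1 and 3. S2 minus S1 was -0.45 and -0.54 under the same normexp forms. All other settings moved these values by less than the residual SD of 0.38. Leaving out single arrays gave -1.07 to -0.61, -2.21 to -1.74 and -1.25 to -1.03 in these comparisons. The cause of these shifts was not tested.

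Pathway genes called in S1 numbered 0, but 1 under median scaling, quantile normalization, the authors' table, the filter on all 12 arrays, the slide block and array weights. In S2 they numbered 2, but 0 under all 3 normexp forms and median scaling, 1 without C-3, S1-4 and S2-4, and 7 with array weights. With the slide as a block or array brightness as a covariate, the 2 were fstl1 and pcsk6. Without C-4 they were fstl1 and ventx2.2. Single arrays left out gave 0 to 2 in S1, 0 to 4 in S2 (0 without S2-2, 1 without C-1, C-3 or S2-1, 4 without S1-4) and 0 to 0 in S2 against S1.

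Probes called in S1 numbered 612, but 28 under normexp as measured, 288 with only the compared groups, 104 with array brightness as a covariate (also added later) and 407 under normexp without an offset. In S2 they numbered 1476, but 29 and 655 under normexp as measured and replaced, 4026 with array weights and 732 with the covariate. In S2 against S1, 1 probe passed under median scaling and 2 under the filter on all 12 arrays. Single arrays left out gave 277 to 744, 482 to 1673 and 0 to 1. asb2 and kcnc4 turned to 0.16 and 0.081 in S2 under normexp as measured.

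Deviations from the group means correlated above 0.1 in 8 of 12 same-numbered pairs of arrays, in 4 of 36 differently numbered pairs and in 9 of 15 pairs on the same slide. The median r was 0.14, -0.05 and 0.16 in the same order. Many same-numbered pairs also shared a slide, so number and slide cannot be told apart there. Since 4 same-numbered pairs did not exceed 0.1, the numbers were not taken to pair the arrays. With the slide as a block, inhbc.1 stood at -0.82 for S1 minus control, -2.05 for S2 minus control and -1.23 for S2 minus S1. With the replicate number as a block, inhbc.1 stood at -0.86, -1.99 and -1.13, pathway calls were 0, 1 and 0, and probe calls 420, 1100 and 0.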
